A study of Mus musculus with 39 samples.

Results

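Of 20809 nuclear consensus peaks of NOTCH and RBPJ binding in the embryonic mouse cortex, 3444 (16.6%, 95% Wilson interval 16.1 to 17.1) covered the first base of at least 1 transcript of a protein-coding gene. These start-site sites were chosen by position only, from a minimum overlap of 1 bp with the mm10 gene annotation (GENCODE M21), and no binding value entered the choice. They held start sites of 3502 of 21938 protein-coding genes (16.0%). Binding was mapped by Targeted DamID, in which the DNA adenine methyltransferase Dam is fused to a protein and methylates adenines in GATC close to where that protein binds. Plasmids were electroporated in utero into wild-type MF1 embryos at E13.5 and the cortex was taken at E14.5, with a Hes5 promoter fragment driving the fusions in radial glial cells (RGCs) and a Tα1 (Tuba1a) promoter fragment driving them in intermediate progenitor cells (IPCs). The RGC Notch list came from 4 samples, 2 with Dam fused to mouse NdECD, a Notch1 that lacks its extracellular domain, and 2 with the intracellular domain, NICD. The IPC Notch list came from 4 NICD samples, and the RGC RBPJ and IPC RBPJ lists from 3 samples each with human RBPJ. Unfused Dam served as control in 5 RGC and 4 IPC samples, and the Notch and RBPJ lists of a cell type share it. All fusions were expressed ectopically from plasmids, so the IPC lists describe where introduced NICD or RBPJ sat in these cells.

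The start site of a gene is where RNA polymerase begins its transcripts, and the promoter around it is read together with distal enhancers. RBPJ binds DNA directly and recruits corepressors until Notch is cleaved after contact with a ligand on a neighbouring cell; the released intracellular domain then joins RBPJ and Mastermind proteins to switch on targets such as the Hes and Hey repressors. In the embryonic cortex this signalling keeps radial glia dividing as stem cells and falls as intermediate progenitors and neurons form. Many mammalian promoters are rich in CpG dinucleotides, and RBPJ recognises short DNA words around TTCCCA, which reads TGGGAA on the other strand.

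The promoters of classical Notch effectors are shown because they hold both situations found at these sites, a bound start site with the RBPJ word beside it and a bound start site without one. Among 11 effector genes, 6 had their reference start site inside a consensus peak: Hes1, Hes5, Hes7, Hey2, Heyl and Nrarp. The reference start site is the first base of the 5′-most APPRIS principal 1 transcript of a gene. For genes without such a transcript, the 5′-most protein-coding transcript was taken, or else the 5′-most transcript of any kind. The 250 bases before the start site are printed 5′ to 3′ along the gene from mm10, with TTCCCA or TGGGAA in capitals: Hes1 at chr16:30065090-30065339 (plus strand), Hes5 at chr4:154960673-154960922 (plus), Hey2 at chr10:30842802-30843051 (minus), Heyl at chr4:123233306-123233555 (plus) and Nrarp at chr2:25180508-25180757 (plus). The 250 bases of Hes7 lie in an exon of the neighbouring gene 9130213A22Rik and are not printed, and those of Hes5 overlap an exon of the non-coding gene Gm20421.
Hes1: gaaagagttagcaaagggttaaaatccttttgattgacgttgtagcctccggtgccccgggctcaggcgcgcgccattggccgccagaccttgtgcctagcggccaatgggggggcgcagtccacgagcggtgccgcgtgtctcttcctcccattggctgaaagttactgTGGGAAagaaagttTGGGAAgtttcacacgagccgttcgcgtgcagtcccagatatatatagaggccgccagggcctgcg
Hes5: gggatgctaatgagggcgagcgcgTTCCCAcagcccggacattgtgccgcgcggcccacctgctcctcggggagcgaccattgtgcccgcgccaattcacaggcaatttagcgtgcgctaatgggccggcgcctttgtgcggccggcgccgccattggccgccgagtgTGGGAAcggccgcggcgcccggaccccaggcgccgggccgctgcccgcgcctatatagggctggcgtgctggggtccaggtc
Hey2: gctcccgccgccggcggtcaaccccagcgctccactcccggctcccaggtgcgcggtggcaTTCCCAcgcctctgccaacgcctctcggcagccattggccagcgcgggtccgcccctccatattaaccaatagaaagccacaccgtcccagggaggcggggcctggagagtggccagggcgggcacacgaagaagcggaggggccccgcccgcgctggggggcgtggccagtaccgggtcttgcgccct
Heyl: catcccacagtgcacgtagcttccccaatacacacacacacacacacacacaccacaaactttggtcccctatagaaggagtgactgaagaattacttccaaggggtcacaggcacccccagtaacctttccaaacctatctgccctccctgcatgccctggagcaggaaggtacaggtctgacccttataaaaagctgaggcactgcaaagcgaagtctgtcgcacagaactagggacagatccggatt
Nrarp: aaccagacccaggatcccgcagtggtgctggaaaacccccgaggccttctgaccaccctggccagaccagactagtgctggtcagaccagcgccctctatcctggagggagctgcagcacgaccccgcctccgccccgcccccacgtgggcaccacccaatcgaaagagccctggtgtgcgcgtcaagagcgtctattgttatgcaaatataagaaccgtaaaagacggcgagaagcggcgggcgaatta
Hes1 carries 2 words whose first bases lie 80 and 66 bases before the start site, and 1 of them is the longer form TTCCCAC. Hes5 carries 2 longer words, 226 and 82 bases before the start site. Hey2 carries 1, at 189 bases, whereas Heyl and Nrarp carry none in these bases. Hes1, Hes5 and Hey2 hold no GATC in the bases shown, and Heyl and Nrarp hold 1 each.

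Peaks were densest on the start sites themselves. At the reference start site, 12.1% of 21938 protein-coding genes were covered by a consensus peak, against a mean of 1.89% at 8 to 10 kb on either side, a ratio of 6.44. Coverage was highest 250 bp downstream, at 12.3%, and was lower 2000 bp upstream (3.71%) than 2000 bp downstream (6.74%). All 4 lists were highest near the start site, with 8.99% of reference start sites in RGC RBPJ peaks, 2.71% in RGC Notch peaks, 2.41% in IPC RBPJ peaks and 0.643% in IPC Notch peaks. Their ratios over the level at 8 to 10 kb were 6.88, 6.73, 6.74 and 6.70. Coverage 1000 bp upstream was 5.78% for RGC RBPJ and 1.84% for RGC Notch. It was 1.11% for IPC RBPJ and 0.292% for IPC Notch, a steeper drop from the start site in the IPC lists. Median widths of peaks on start sites were 1688.5 bp for IPC RBPJ and 1558 bp for IPC Notch. In RGCs they were 2764 bp for RBPJ and 2953 bp for Notch. A narrower peak over a start site reaches less far from it, and the difference in form was not tested. Of 2663 pairs of a consensus peak and a covered reference start site, 63.2% (61.3 to 65.0) had the midpoint of the peak downstream of the start, with a median of 220.5 bp and quartiles of -238 and 681 bp. IPC Notch midpoints lay closest, with a median of 79.0 bp downstream over 141 pairs, and 55.3% of them (47.1 to 63.3) lay downstream. IPC Notch peaks on start sites were also the narrowest of the 4 lists. The part of width in the drop and in the midpoints was not tested.

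**Figure D1:**
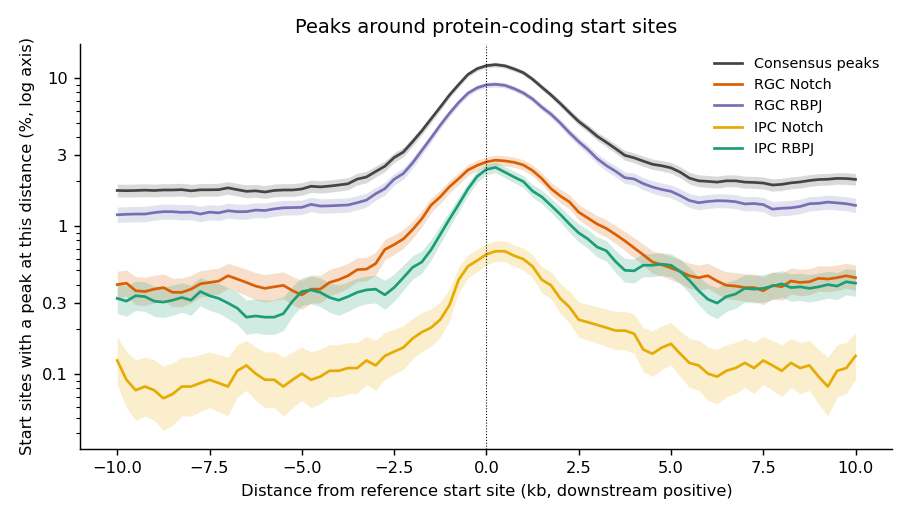
Share of 21938 reference start sites covered by a peak (percent, log axis) at each distance from the start site in kb, downstream positive, for the consensus peaks and the 4 lists. Bands are 95% Wilson intervals over genes, and every list is highest 250 bp downstream of the start site, with IPC Notch at the same value, 0.675%, at 500 bp.

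Without regard to width, start-site sites were called in more lists than the other peaks. RGC RBPJ was called at 2505 of the 3444 (72.7%, 71.2 to 74.2), where 67.6% of all nuclear consensus peaks were called. RGC Notch was called at 800 (23.2%, 21.8 to 24.7), against 17.7% of all peaks. IPC RBPJ was called at 909 (26.4%, 24.9 to 27.9), against 26.2%, and IPC Notch at 313 (9.09%, 8.17 to 10.1), against 10.1%. Compared with the 17365 peaks on no start site, the share was higher by 6.60 percentage points for RGC Notch (Newcombe 95% interval 5.11 to 8.14) and by 6.13 for RGC RBPJ (4.46 to 7.75). The difference was 0.220 points for IPC RBPJ (-1.37 to 1.85) and -1.20 for IPC Notch (-2.22 to -0.0974). Calls in 2 or more lists were made at 883 start-site sites (25.6%, 24.2 to 27.1), where 17.1% of all peaks had them, and 15.4% of the peaks off start sites. These intervals count peaks and hold no spread between samples, because the lists are pooled over replicates; no p-value is given for that reason.

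The gain in shared calls depended on the pair of lists. RBPJ in both cell types was called at 11.8% of start-site sites against 5.86% of other peaks, a difference of 5.99 points (4.89 to 7.16). Notch and RBPJ in RGCs were called together at 12.1% against 6.90%, a difference of 5.24 points (4.12 to 6.43). Notch in both cell types was called at 2.21% against 2.41% (difference -0.200, -0.701 to 0.388), and Notch with RBPJ in IPCs at 2.58% against 2.32% (difference 0.263, -0.270 to 0.886). For these 2 pairs with IPC Notch the interval of the difference included 0. Read the other way, 30.4% (28.5 to 32.3) of the 2195 peaks shared by lists other than IPC Notch lay on a start site, against 15.9% (14.0 to 17.9) of the 1360 shared peaks that IPC Notch was part of. The difference of 14.505 points (11.7 to 17.2) held in the 4 width classes from 1000 bp upwards, between 11.4 and 17.4 points, and was 2.71 points (-8.39 to 13.8) under 1000 bp. Peaks called in RGC Notch and IPC RBPJ only had the highest share of the 15 combinations, 37 of 85 (43.5%, 33.5 to 54.1).

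**Figure D2:**
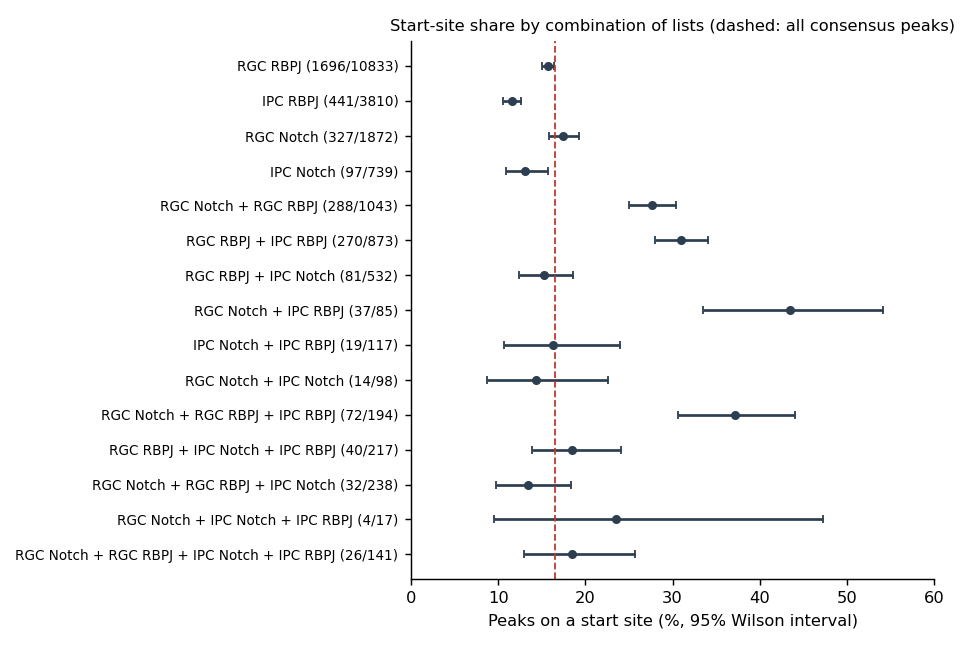
Share of consensus peaks on a protein-coding start site (percent, points with 95% Wilson intervals) for each of the 15 combinations of lists, with the counts beside each name and all peaks as the dashed line. Combinations without IPC Notch reach 27.6% to 43.5% once 2 or more lists share a peak, whereas the shared combinations with IPC Notch sit between 13.4% and 23.5%.

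Width moved with these shares. Start-site sites were wider, with a median of 2603 bp (quartiles 1762 and 3716) against 1765 bp (1130 and 2714) for the other peaks. The share of peaks on a start site went from 5.77% under 1000 bp to 34.9% at 5000 bp or more. Sites were chosen for covering a given base, which a wider peak does more often. Both width contrasts therefore follow at least in part from the choice. Within width classes the differences in shared calls shrank. Calls in 2 or more lists differed by 3.19 points (0.484 to 7.41) under 1000 bp and 3.43 (1.39 to 5.77) between 1000 and 2000 bp. From 2000 bp upwards the 3 differences were 1.05 (-1.63 to 3.92), 3.39 (-0.0485 to 6.89) and 1.66 points (-4.53 to 7.76), and each interval included 0. Consensus peaks were merged from overlapping peaks of the lists, so a call in several lists can itself widen a peak. The part of width in the gain in shared calls was not tested. RGC Notch differed by 3.07 points (0.833 to 5.58) between 1000 and 2000 bp and by -0.443 points (-3.73 to 2.95) between 3000 and 5000 bp, and RGC RBPJ was called less often at start-site sites under 1000 bp, by -9.08 points (-15.9 to -2.17), and differed by 1.71 points (-1.12 to 4.36) between 3000 and 5000 bp. IPC Notch was called less often at wide start-site sites than at other wide peaks, 7.98% against 13.6% between 3000 and 5000 bp (difference -5.60, -7.63 to -3.37) and 15.6% against 25.4% at 5000 bp or more (-9.78, -14.5 to -4.72). Under 1000 bp it was called more often at start-site sites, 14.2% against 9.71% (4.44, 0.258 to 9.86). IPC RBPJ was called more often at start-site sites between 3000 and 5000 bp, 21.2% against 17.48% (3.69, 0.839 to 6.69), and under 1000 bp, 35.8% against 27.7% (8.17, 1.83 to 14.98).

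**Figure D3:**
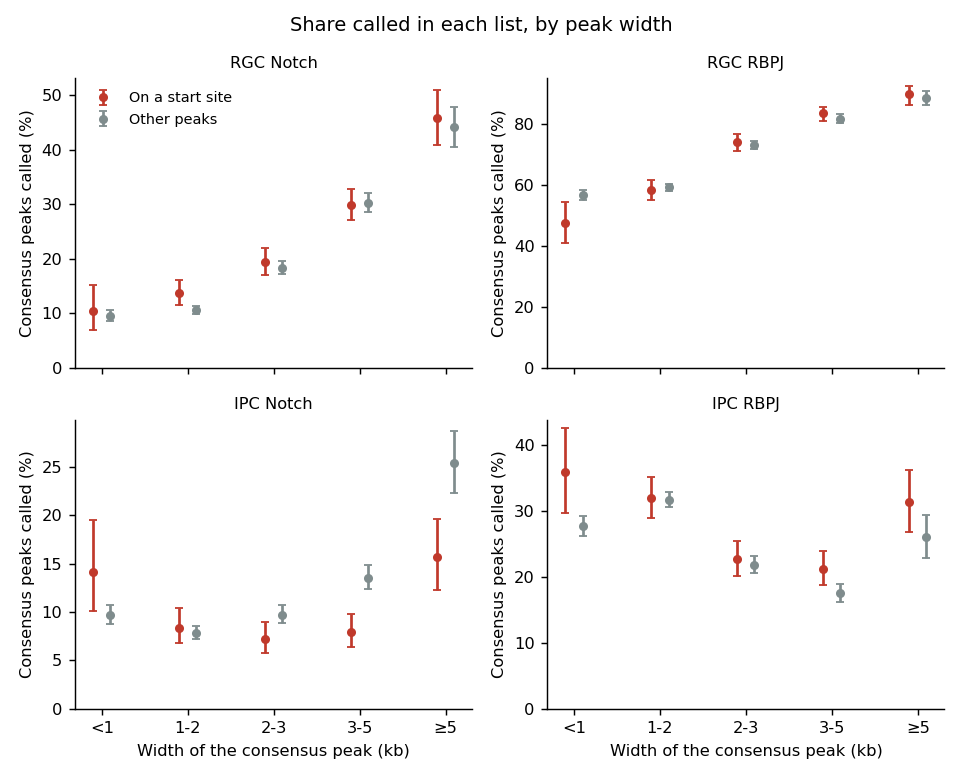
Share of consensus peaks called in each list (percent, points with 95% Wilson intervals) by width of the consensus peak in kb, for start-site sites and for the other peaks. The points of RGC Notch and RGC RBPJ nearly coincide above 2 kb, whereas IPC Notch is lower at start-site sites above 3 kb, 7.98% against 13.6% and then 15.6% against 25.4%.

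A consensus peak can cover a start site that the peak of a contributing list does not reach, so the peaks of each list were also placed on their own. RGC Notch had 749 of 3702 nuclear peaks on a start site (20.2%, 19.0 to 21.6), covering 792 genes (3.61% of protein-coding genes). RGC RBPJ had 2475 of 14097 (17.6%, 16.9 to 18.2), covering 2567 genes (11.7%). IPC RBPJ had 782 of 5497 (14.2%, 13.3 to 15.2), covering 818 genes (3.73%), and IPC Notch 244 of 2157 (11.3%, 10.04 to 12.7), covering 246 genes (1.12%). The share was 8.92 points higher for Notch in RGCs than in IPCs (7.03 to 10.8). Between 3000 and 5000 bp, 10 of 105 IPC Notch peaks lay on a start site (9.52%, 5.26 to 16.6), against 74 of 225 IPC RBPJ peaks (32.9%, 27.1 to 39.3) and 260 of 1009 RGC Notch peaks (25.8%, 23.2 to 28.6), whereas under 2000 bp the 4 lists were within 3.58 points of each other. Where a list was called at a start-site site, its own peak reached the start site at 98.8% of sites with RBPJ in RGCs and 85.6% with RBPJ in IPCs, while Notch peaks did so at 93.5% of sites in RGCs and 78.0% in IPCs.

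Among Notch receptors and ligands, 5 of 9 genes had a start-site site, where 16.0% of all protein-coding genes had one. When only coding transcripts were counted, 4 had one, without Notch4. The receptor Notch1 lay in a site of 14115 bp called in RGC Notch, RGC RBPJ and IPC Notch, although at its start sites only RGC RBPJ had a peak of its own. The receptor Notch4 was covered at an alternative start site by an RGC RBPJ peak, and its reference start lay 7245 bp from the nearest peak. The ligand Jag1 was covered in both RBPJ lists, the ligand Dll1 at its reference start in RGC RBPJ and at an alternative start in RGC Notch, and Dll3, a divergent ligand, in IPC RBPJ only. Notch2, Notch3, Dll4 and Jag2 had no start-site site, and Notch3 missed one by 110 bp, Notch2 by 2861 bp, Dll4 by 2915 bp and Jag2 by 19791 bp.

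Of the 11 effectors, 7 had a start-site site (63.6%, 35.4 to 84.8, against 16.0% of all genes), and RBPJ reached the start site in all 7 in at least 1 cell type. When only coding transcripts were counted, 6 had one, without Hey1. The list was chosen with earlier results of these data known, and the paper names Hes1, Hes5, Nrarp and Nepro near its peaks. Its share only describes these genes. The repressor Hes1 was the only effector whose start site lay in peaks of all 4 lists, in a site of 7627 bp in cluster 2 (chromosome 16, 30062417 to 30070043). Nrarp, a feedback inhibitor of Notch, had a site of 10825 bp called in all 4 lists, but only RGC RBPJ and IPC Notch peaks reached its start site. Hes7 and Hey1 were covered in RGC RBPJ and IPC RBPJ, with Hey1 at alternative start sites and its reference start 181 bp outside the peak. Hes5 was called in both RBPJ lists and its start site was reached by RGC RBPJ alone; a Hes5 promoter fragment is also on the RGC plasmids, and the part of plasmid DNA in this peak was not tested. Heyl was covered in RGC RBPJ only and Hey2 in IPC RBPJ only. RGC RBPJ thus reached 6 effector start sites, IPC RBPJ 4, IPC Notch 2 and RGC Notch 1, where they reached 11.7%, 3.73%, 1.12% and 3.61% of all protein-coding genes. Hes2, Hes3, Hes6 and Nepro had no start-site site and lay 6897, 101492, 42544 and 4689 bp from the nearest peak.

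Of 28 genes that process Notch or act with its complex, 11 had a start-site site (39.3%, 23.6 to 57.6, against 16.0% of all genes), all of them at their reference start site. The corepressors Tle1, Tle3 and Tle4 each had one, and Tle3 had 2, of 9987 and 7062 bp, both with an IPC Notch peak on a start site. Both RBPJ lists covered the glycosyltransferase gene Lfng, Tle1, Tle4 and Rbpj itself. Numb, which encodes an inhibitor of Notch, was reached by RGC Notch and RGC RBPJ, the ubiquitin ligase subunit gene Fbxw7 and the fucosyltransferase gene Pofut1 by RGC Notch only, and the ubiquitin ligase gene Dtx1 and the coactivator Maml3 by RGC RBPJ only. The coactivator Maml2 was reached by IPC RBPJ only. The other 17 had none, among them the protease gene Adam10, the ubiquitin ligase genes Itch and Mib1, the glycosyltransferase genes Mfng and Rfng, and Dlk1 and Numbl. Spen missed a peak by 31 bp, Maml1 by 148 bp, Neurl1a by 320 bp and Tle2 by 337 bp.

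Radial glia markers were covered at 10 of 12 genes (83.3%, 55.2 to 95.3, against 16.0% of all genes), and at 9 when only coding transcripts were counted. This list was chosen with earlier results of these data known. It holds Sox2, Pax6, Gli3, Prdm16 and Sox9, which the paper shows as RGC-specific target genes, so its share only describes these genes. Start sites of the markers lay in RGC RBPJ peaks at 9 genes (11.7% of all genes), RGC Notch peaks at 7 (3.61%), IPC RBPJ peaks at 2 (3.73%) and IPC Notch peaks at 1 (1.12%). Fabp7, a fatty acid binding protein of radial glia, was covered at its start site in all 4 lists by a site of 5175 bp. Pax6, a transcription factor of cortical progenitors, lay in the widest start-site site of all, 14692 bp, reached by RGC Notch, RGC RBPJ and IPC RBPJ, and had a second site of 4624 bp over an alternative start. The glutamate transporter Slc1a3, the intermediate filament Vim and the Hedgehog pathway factor Gli3 were reached by both RGC lists, the neural factor Sox2 and the intermediate filament Nes by RGC RBPJ only, and Emx2 and Lhx2 had 2 sites each. Sox9 and Ptprz1 had none. Intermediate progenitor markers were covered at 5 of 9 genes (55.6%, 26.7 to 81.1), all 5 in RGC RBPJ, namely Btg2, Gadd45g, Mfap4 and the proneural genes Neurog1 and Neurog2, with Btg2 also in RGC Notch and Neurog1 also in IPC RBPJ. Eomes, the defining transcription factor of these cells, missed a peak by 443 bp. Neuron markers were covered at 5 of 14 genes (35.7%, 16.3 to 61.2, against 16.0% of all genes), and at 4 when only coding transcripts were counted. The tubulin Tubb3 and the proneural factor Neurod1 were reached by IPC RBPJ only, both in cluster 3, Neurod6 by RGC Notch, IPC Notch and IPC RBPJ, Fezf2 by RGC RBPJ and IPC Notch, and Gap43 by RGC RBPJ at an alternative start. None of 14 endothelial, microglial, mural and blood markers had a start-site site, which allows a share of up to 21.4%.

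Other gene groups spread widely around 16.0%, and some of them share genes with the lists above. Gli3 is counted again among signal-dependent factors, and Hes1, Hes7 and Neurog2 among bHLH genes. Pax6 and Emx2 are counted again among homeobox genes and Sox2 among Sox genes. Signal-dependent transcription factors were covered at 13 of 25 genes (52.0%, 33.5 to 70.0), with sites of 7355 bp at Gli3, 7290 bp at Gli2, 6252 bp at Etv5 and 5225 bp at Tead2. Genes of bHLH factors were covered at 20 of 46 (43.5%, 30.2 to 57.8), among them Id3, an inhibitor of bHLH proteins. RGC RBPJ reached 14 of the 46 and IPC RBPJ 11, where they reached 11.7% and 3.73% of all protein-coding genes. Eph receptors and ephrins, guidance proteins at the cell surface, were covered at 9 of 22 (40.9%, 23.3 to 61.3), with sites at Ephb4, Epha4, Epha3 and Efnb1. Of the 22, 8 were reached by RGC RBPJ (11.7% of all genes) and 2 by IPC RBPJ (3.73%). Cell cycle genes were covered at 24 of 75 (32.0%, 22.5 to 43.2), among them the kinase Cdk6, the repressors E2f7 and E2f8 and the inhibitor Cdkn1b. Splicing factors had 14 of 52 (26.9%, 16.8 to 40.3; Hnrnpr, Srsf11), chromatin regulators 23 of 92 (interval 17.3 to 34.7%; the methyltransferase Kmt2d and the demethylase Kdm2b), potassium channels 23 of 94 (24.5%, 16.9 to 34.0; Kcnh8, Kcnn1) and zinc finger Zfp genes 75 of 365 (20.5%, 16.7 to 24.99; Zfp608, Zfp428). Sox genes had 5 of 19 (26.3%, 11.8 to 48.8; Sox1 and Sox6) and homeobox genes 24 of 131 (18.3%, 12.6 to 25.8; Zfhx4), with intervals that include the share of all genes.

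The remaining groups had shares under that of all genes, and for the first 4 the interval included it. Ribosomal proteins were covered at 12 of 83 genes (14.46%, 8.47 to 23.6), with Rpl13a in a site of 7340 bp. Respiratory chain subunits were covered at 13 of 90 (14.4%, 8.64 to 23.2; Cox6b2, Ndufa11), proteasome subunits at 5 of 39 (12.8%, 5.60 to 26.7; Psmb3, Psmb10) and histones at 7 of 78 (8.97%, 4.42 to 17.4; Hist1h2ag, H2afx). Olfactory and vomeronasal receptors were covered at 7 of 1466 (0.477%, 0.231 to 0.982; Olfr1415, Olfr366) and keratins at 1 of 53 (1.89%, 0.334 to 9.94; Krt1). The number of start sites annotated for a gene moved with these counts: 6.47% of genes with 1 start position had a site, against 27.2% (25.9 to 28.5) of genes with 7 or more, and its part in the group shares was not tested. Counted at the reference start only, 12.1% of all genes were covered, and so were 6 of 11 effectors, 4 of 9 receptors and ligands, 8 of 12 radial glia markers, 17 of 46 bHLH genes and 12 of 92 chromatin regulators.

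**Figure D4:**
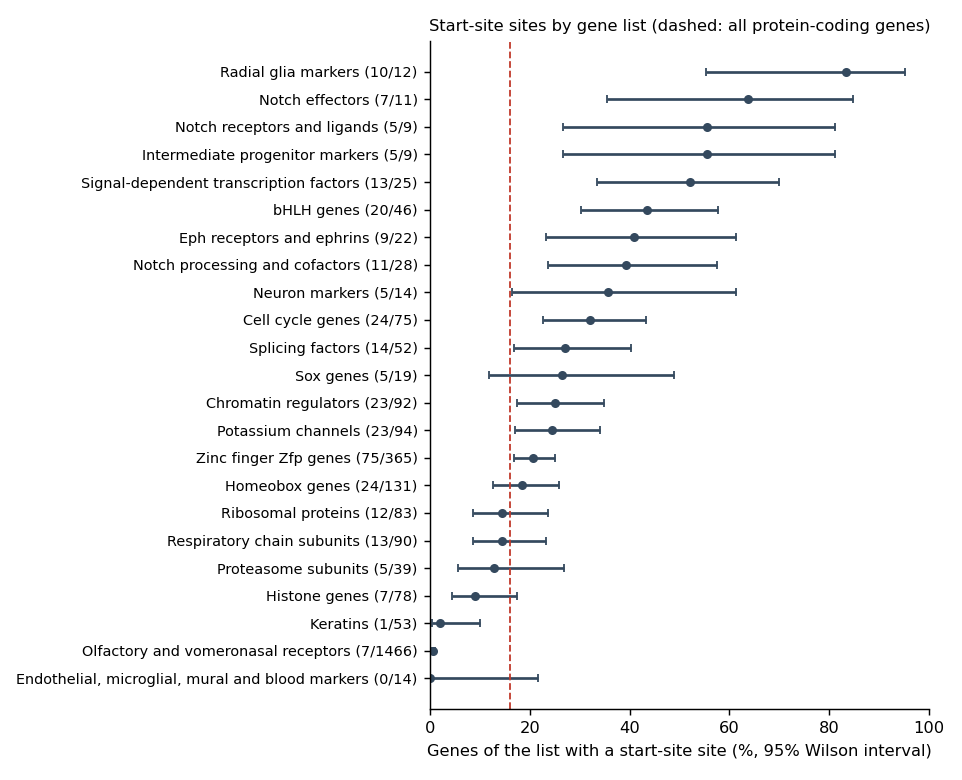
Share of the genes of each list with a start-site site (percent, points with 95% Wilson intervals), without the 5 genes with sequence on the plasmids, with counts beside each name and the share of all protein-coding genes, 16.0%, as the dashed line. Radial glia markers (10 of 12) and Notch effectors (7 of 11) are at the top, and receptors of smell (7 of 1466) and markers of other cell types (0 of 14) at the bottom. Lists were chosen with earlier results of these data known, and some genes stand on several lists.

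At 2761 sites (80.2%) the start site lay in the peak of 1 list, at 583 in those of 2 lists, at 93 in those of 3 and at 7 in those of all 4. By width, the 7 were Tnrc18 (8549 bp), Hes1, Tanc1 (5778 bp), Nrg1 (5349 bp), Fabp7, Nedd4l (4023 bp) and Gm11627 (2725 bp). Nrg1 encodes neuregulin, a growth factor, and Nedd4l a ubiquitin ligase; Nrg1 was covered at an alternative start. Hes1, Tanc1, Fabp7 and Gm11627 were in cluster 2, Tnrc18 and Nedd4l in cluster 7 and Nrg1 in cluster 4. The 5 widest start-site sites lay over Pax6, the zinc finger gene Prdm16 (14122 bp), Notch1, the transcription factor Zeb2 (13792 bp) and the oxygen sensor Egln3 (12948 bp). All 5 were called in RGC Notch and RGC RBPJ, where 12.1% of all start-site sites were called in both. Of the start-site sites of 5000 bp or more, 58.6% were called in 2 or more lists. Merging the lists can itself widen a peak, so these calls are tied to the choice by width. The sites at Prdm16 and Zeb2 covered alternative start sites. Genes whose sequence is also on plasmids of the study all had a site, 5 of 5 (Hes5, Tuba1a, Neurod1, Notch1 and Rbpj), against 16.0% of all protein-coding genes. The Tuba1a site (3890 bp) was called in RGC RBPJ and IPC RBPJ. Hes5 and Tuba1a were on plasmids as promoter fragments, and Notch1 and human RBPJ as coding sequence. The Neurod1 promoter was on a plasmid of the neuron samples, none of which is behind the 4 lists. Reads from plasmids were not told apart from genomic ones here, and their part was not tested.

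Most start-site sites held the start of a single gene (3174), 255 held 2 genes, 14 held 3 and 1 held 4, namely Ubr7, Gon7, Gm28051 and Gm20604. The 4 widest of those with 3 genes lay at Gata3, at Fkbp2 with Plcb3 and Ppp1r14b, at Arhgap39 with Lrrc24, and at Ap4b1 with Dclre1b. Genes on both strands started in 231 sites. Genes with a divergent partner whose start lay within 1000 bp had their reference start covered more often, 277 of 1547 (17.9%, 16.1 to 19.9) against 11.7% (11.3 to 12.1) of genes without one. A long non-coding RNA also started in 385 sites (11.2%, 10.2 to 12.3), against 2.68% of the other peaks. Of the 3502 genes, 2663 (76.0%) were covered at their reference start, 523 only at another start of a coding transcript and 316 only at the start of a non-coding transcript of the gene.

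Some genes had separate sites over several of their annotated start sites, and promoter activity at these was not tested. Trim2, which encodes a ubiquitin ligase, had 5 separate sites, all at alternative starts, and Fgfr2, Myo10, Pde4d, Sox6, Stox2 and Tcf4 had 4 each. The 4 sites of Pde4d, a phosphodiesterase gene, were 1395 to 2712 bp wide, all in cluster 5 and called in RGC RBPJ only. Of all start-site sites, 27.1% were in cluster 5 and 49.2% were called in RGC RBPJ only. The sites of Sox6, a transcription factor of neural progenitors, were in clusters 6, 7 and 8. IPC Notch was called at 3 of them, where it was called at 9.09% of all start-site sites. Genes with a start-site site also had more peaks elsewhere: 45.7% (44.1 to 47.4) were the nearest gene of at least 1 peak on no start site, against 28.3% (27.7 to 29.0) of other genes, with means of 1.71 and 0.617 such peaks. Auts2 (45 peaks), Epha4 (38) and Zfp608 (36) had the most. Gene length and the distance to the next gene were not accounted for.

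Clusters, which the authors formed from binding intensity, differed in how often they met a start site. Cluster 7 had 679 of 2289 peaks on a start site (29.7%, 27.8 to 31.6), cluster 4 22.9%, cluster 6 21.2% and cluster 5 19.9%. Clusters 1 and 2 had 14.2% and 14.4%, cluster 3 9.46% and cluster 8 116 of 3004 (3.86%, 3.23 to 4.61). Within every width class, cluster 7 made up more of the start-site sites than of the other peaks, with differences of 7.17 to 18.2 points, and cluster 8 less, with differences of -16.1 to -4.73 points. Cluster 7 start-site sites included Lfng, Rbpj, Tle1, Hes7, Hey1, Neurog1, Neurog2 and Tuba1a. Of the 679, 172 (25.3%) were called in RGC RBPJ and IPC RBPJ only, against 7.84% of all start-site sites. Of the 320 in cluster 3, 286 (89.4%) were called in IPC RBPJ only, against 12.8% of all. The clusters were formed from binding in the same 4 conditions, so these shares follow in part from how they were built.

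Start-site sites were richer in CpG than the other peaks. Their median GC content was 51.7% (quartiles 47.9 and 55.5) against 44.5% (41.0 and 48.0) for the other peaks, and their CpG density 32.6 against 10.6 per kb. Start-site sites lie on promoters by choice and the other peaks on none. This contrast therefore cannot separate bound promoters from promoters at large. Cluster 8 stood apart, with 44.8% GC and 12.3 CpG per kb at its start-site sites. Over all 21938 reference start sites, the share in a consensus peak went from 0.806% (0.580 to 1.12) with under 10 CpG per kb, counted 500 bp to either side, to 19.7% (18.4 to 20.96) between 60 and 80, and was 18.8% (17.6 to 20.0037) at 80 or more. RGC Notch coverage was highest at 80 CpG per kb or more, with 5.25%, whereas IPC RBPJ went from 4.09% between 60 and 80 to 2.63% at 80 or more. Hes5 (94.0 CpG per kb) and Nrarp (87.0) are of the CpG-rich kind, and Fabp7 and Mfap4, with 13.0 and 14.0, are of the CpG-poor kind.

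The number of GATC sites, where Dam can methylate, moved with the calls as well. With no GATC in the 1000 bp around the start site, 4.54% (3.75 to 5.49) of reference starts were in a consensus peak, against 18.02% (16.98 to 19.1) with 4 or more. RGC RBPJ went from 1.09% to 14.3% and RGC Notch from 0.318% to 5.28%, but IPC RBPJ from 3.45% to 2.44%. In all, 161 start-site sites (4.67%) held no GATC anywhere, of which 144 were called in IPC RBPJ only and 130 were in cluster 3. Among all start-site sites, 12.8% were called in IPC RBPJ only and 9.29% were in cluster 3. Of the IPC RBPJ start-site sites, 16.0% (13.7 to 18.5) held none, against 36.0% (34.6 to 37.4) of the other IPC RBPJ peaks, and against 0.359% of RGC RBPJ start-site sites. The Hes5 start site, reached by RGC RBPJ, had no GATC within 500 bp. Whether a peak without GATC reflects binding was not tested.

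**Figure D5:**
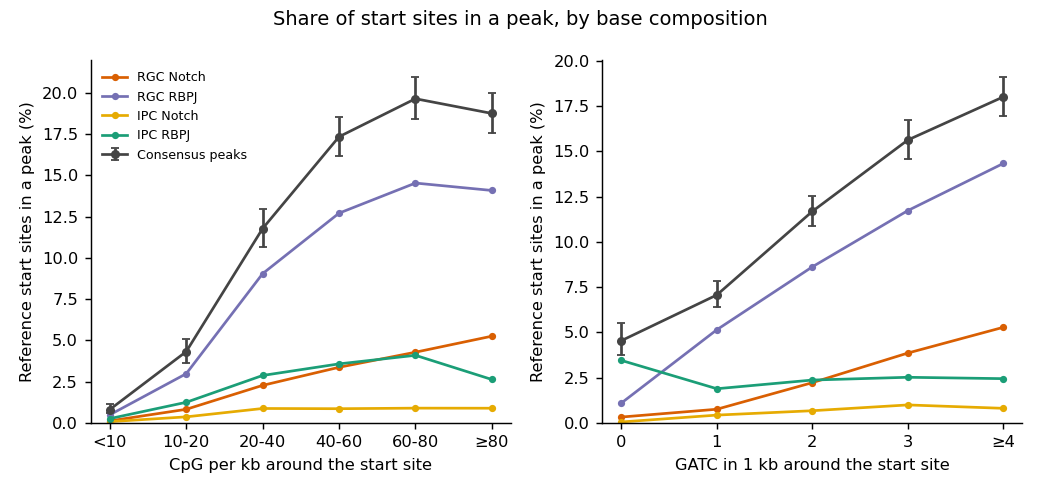
Share of 21938 reference start sites in a peak (percent) by CpG per kb and by number of GATC sites in the 1000 bp around them, for the consensus peaks (with 95% Wilson intervals) and the 4 lists. Coverage by consensus peaks climbs to 19.7% between 60 and 80 CpG per kb and is 18.8% above that, and reaches 18.02% at 4 or more GATC sites, while IPC RBPJ is highest, at 3.45%, where no GATC is present.

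The RBPJ word did not set these promoters apart when all were pooled. TTCCCA on either strand lay between 250 bases before and 50 after the start in 25.2% (23.6 to 26.9) of 2663 reference starts in a consensus peak, in 25.04% of those in none, and in 25.1% of all 21938. It was rarer where CpG was dense, from 30.0% of uncovered starts with under 10 CpG per kb to 13.8% at 80 or more. Within each of the 6 CpG classes the covered starts held it more often, by 2.40 to 5.12 points, though only between 40 and 60 CpG per kb did the interval of the difference leave out 0 (4.54, 0.853 to 8.41). The longer word TTCCCAC, which holds TTCCCA, was in 7.06% (6.15 to 8.10) of covered and 5.90% (5.57 to 6.24) of uncovered starts, and in 6.04% of all. By list, TTCCCA was at 20.2% of the start sites in RGC Notch peaks and 25.8% of those in RGC RBPJ peaks. Over whole sites, its density was 1.12 per kb at start-site sites and 1.18 per kb in the other peaks.

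Other words were compared in the same window, on both strands, beside their share of all 21938 starts. The GC box GGGCGG was in 64.4% (62.6 to 66.2) of covered and 42.3% of uncovered starts (44.9% of all), GATC in 59.1% and 44.8% (46.5%), the Ets core CCGGAA in 22.2% and 17.47% (18.05%), and the E-box CACGTG in 10.3% and 7.41% (7.76%). The NRF1 core GCATGCGC was in 4.66% and 3.67% (3.79%), and CCAAT in 40.1% and 38.6% (38.8%). Words rich in A and T were rarer at covered starts, with TATAAA in 7.47% against 13.3% (12.6% of all) and the homeobox core TAATTA in 2.22% against 5.53% (5.12%). Start sites in IPC Notch peaks held TAATTA in 5.67% of 141 cases, against 1.68% to 2.84% in the other lists. These are matches of letters and not sites of binding.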

How the data were processed

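The deposited files hold only positions in bp (chromosome, start and end; unit: other) of peaks on mm10. According to the methods, broad peaks were called by the authors using MACS2 on each pair of a fusion and a Dam-only sample, kept under a stringent false discovery rate those present in all pairs, merged overlapping peaks of the 4 lists into 20811 consensus peaks and grouped these into 8 clusters. Sequencing depth is unknown, 0 columns hold values of single samples, and the peak scores are constant. List names in the consensus file matched the overlaps in all peaks (0 mismatches).

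Nuclear peaks were intersected with 93513 start positions of GENCODE M21 protein-coding genes (overlap of 1 bp) in Python 3.11.15 with numpy 2.4.6 and pandas 2.3.3. Intervals are 95% Wilson and Newcombe intervals for counting error only; a count of 0 is bounded by 3 counts. Peaks off start sites were given to the nearest start. Members, gene lists and tests were chosen with earlier results of these data known. Genes were named by a fixed rule: all Notch genes, starts in peaks of 4 lists, the 5 widest sites, sites and genes with most starts, 2 to 4 genes with the widest site of other lists, and plasmid genes; some genes that it names are not reported here. Marker genes and other examples beyond it were picked after their values were seen. Overlap and word searches were tested on simulated data. The remaining 16 samples (other fusions, neurons, ubiquitous Dam-only) were not used here. Alternatives varied transcripts, overlap, width, chromosomes and GATC content.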

Additional observations from a re-analysis of the deposited data

How the results depend on the processing

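No paired analysis was possible because the lists are pooled over replicates and hold no values of single samples; leaving out replicates and a stricter score threshold were not run for the same reason. Under 8 alternatives, 44 of 68 values of the main results stayed within their 95% interval (for counts, within 1.5 times). With APPRIS principal 1 transcripts only, there were 1977 sites and 2111 genes, 9.50% of peaks, 74.7% of sites called in RGC RBPJ and 7.64% in IPC Notch. With protein-coding transcripts only, 14.6% of peaks lay on a start. With the start at least 250 bp inside the peak, the values were 14.3% of peaks, 75.1% in RGC RBPJ and a median width of 2770 bp, and with the peak within 500 bp of the start 19.9%, 70.1% and 2400 bp, with 23.7% called in 2 or more lists. Consensus peaks of at least 1000 bp gave 18.9%, 74.4% in RGC RBPJ and 2716 bp. Peaks with at least 1 GATC gave 17.48%, 76.0% in RGC RBPJ, 23.3% in IPC RBPJ and 2665 bp. Counting a list as called only where its own peak reached the start gave 21.7% in RGC Notch, 7.08% in IPC Notch, 22.6% in IPC RBPJ and 19.8% in 2 or more lists. No value for autosomes alone left its interval.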
